A study of Mus musculus with 6 samples.

Results

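The immunoglobulin kappa variable (Igkv) genes were followed as the 158 gene names that start with Igkv, out of 46963 genes in the count table. They were grouped into 20 subfamilies by the first number of the name. The counts come from RNA sequencing of CD43- splenic B-cells, that is, spleen cells depleted of cells carrying CD43, from wt mice and from mice that lack an enhancer of the immunoglobulin heavy chain (IgH) locus. Eμ-deficient mice lack the intronic enhancer Eμ (the study's methods name the line EμMAR-deficient), and 3′RR-deficient mice lack the 3′ regulatory region, a group of enhancers at the other end of the locus. The deletions are carried in every cell, and all mice were of the 129 background, male and female, between 8 and 12 weeks old. The study asked how these enhancers act in resting B-cells and in B-cells stimulated with lipopolysaccharide (LPS), and the Igkv genes lie on another chromosome than the deleted enhancers. The stimulated groups had 2 days of culture in LPS at 5 μg per ml by the study's methods (a protocol label gives 5 mg per ml), a bacterial cell wall component that activates B-cells. The labels say that the resting cells were also cultured for 2 days, without LPS, whereas the methods describe them as taken before stimulation. There is 1 library for each genotype and state, 6 in all, each a pool of 2 mice by the labels, so that no difference within a state has a replicate check. The table holds no row for Eμ or the 3′RR, and the deletions could not be checked from it.

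An antibody light chain of the kappa type is encoded by a single Igkv gene, which is joined to 1 of a few Igkj genes during B-cell development and spliced to the constant gene Igkc. A mature B-cell and its descendants keep that choice, so that the Igkv transcripts of a population report which B-cells it holds as well as how much each of them transcribes. The light chain pairs with the IgH chain to form the antigen receptor, lambda chains (Iglv, Iglc) being the alternative to kappa, and LPS drives many B-cells towards antibody-secreting plasma cells, which make far more light chain RNA per cell.

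The GRCm38 annotation GENCODE M21 held 156 of the 158 names, and 153 of them could be placed, 97 as variable genes and 56 as pseudogenes. They cover 3.149 Mb of chromosome 6, from 67555497 to 70704177, with 74 on the plus and 79 on the minus strand, and end 18.4 kb before the first joining gene, Igkj1 (70722562). The names Igkv19-93, Igkv12-47 and Igkv4-56 were given no place, because their annotated place disagrees with their order in the table, and Igkv13-89-1 and Igkv8-23-1 were not found. Counts were seen for 127 names in at least 1 library and for 104 in all 6. The other 31 names were at 0 in all 6 libraries, and 30 of them are annotated as pseudogenes. The tests below used the 100 names that reached 10 counts in 2 or more libraries, 89 of them variable genes, 8 pseudogenes and 3 without a place, and 58 names were not tested.

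The 3′ end of an Igkv gene codes for the start of CDR3, a loop of the light chain that contacts antigen and helps to tell the genes apart. The coding 3′ ends are shown for the 5 genes with the largest mean share, for Igkv14-126 and Igkv1-88, which stood apart in the resting 3′RR-deficient library, for Igkv4-57, Igkv4-59 and Igkv15-103, whose share was higher in both Eμ-deficient libraries, and for Igkv6-14 and Igkv3-5, which stood apart in the resting wt library. Capitals mark the bases after the last in-frame cysteine codon. The bases are those of the GENCODE M21 transcripts (GRCm38), 5′ to 3′ on the coding strand, and not of the sequenced 129 mice.
Igkv1-117: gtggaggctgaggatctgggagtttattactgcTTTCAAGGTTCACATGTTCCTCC
Igkv1-110: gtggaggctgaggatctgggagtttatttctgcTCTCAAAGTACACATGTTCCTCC
Igkv1-135: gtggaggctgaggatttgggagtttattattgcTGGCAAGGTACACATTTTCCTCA
Igkv10-96: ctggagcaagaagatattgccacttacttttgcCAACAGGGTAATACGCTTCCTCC
Igkv5-43: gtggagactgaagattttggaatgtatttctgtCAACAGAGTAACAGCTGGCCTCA
Igkv14-126: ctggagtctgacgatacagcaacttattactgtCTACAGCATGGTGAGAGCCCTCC
Igkv1-88: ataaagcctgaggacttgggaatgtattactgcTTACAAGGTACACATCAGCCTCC
Igkv4-57: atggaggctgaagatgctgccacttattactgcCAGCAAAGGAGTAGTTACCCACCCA
Igkv4-59: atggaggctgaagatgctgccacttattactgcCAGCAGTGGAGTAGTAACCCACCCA
Igkv15-103: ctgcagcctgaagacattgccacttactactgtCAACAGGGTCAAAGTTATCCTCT
Igkv6-14: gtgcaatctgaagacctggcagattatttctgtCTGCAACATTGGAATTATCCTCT
Igkv3-5: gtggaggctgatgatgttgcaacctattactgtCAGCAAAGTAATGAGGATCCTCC

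The 6 libraries held between 9111974 and 21998587 gene counts, and the Igkv names took between 0.0846% and 0.389% of them. The LPS-stimulated 3′RR-deficient library stood apart. Over 35 added spike-in RNAs of 100 counts or more per library, its log2 ratios to wt had an SD of 1.27, against 0.157 to 0.477 in the other 3 comparisons with wt. CPM are counts per 1000000 of the library size after scaling by edgeR's TMM method. A share is the percentage of a library's summed Igkv counts and does not depend on library size. Both are based on counts that were not divided by length, and the annotated transcripts of the genes named by rule measured from 298 to 404 bases. All 95% intervals are exact (Clopper-Pearson), compare libraries and not genotypes, and cover counting error only. The edgeR quasi-likelihood model had genotype and state as additive terms, so that its error measures how far the 6 libraries depart from an additive pattern, not how mice vary. Its p-values were adjusted over all 14600 genes tested (Benjamini-Hochberg, threshold 0.05).

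The summed kappa level was higher in the Eμ-deficient libraries and after LPS, although the model across libraries did not call it. The Igkv names summed to 749 CPM in resting wt B-cells, 3139 CPM in Eμ-deficient and 1074 CPM in 3′RR-deficient B-cells. After LPS the sums were 1307, 3981 and 2248 CPM, respectively. Both Eμ-deficient sums lay above the other 4, and each genotype had the higher sum after LPS. The log2 ratio of Eμ-deficient to wt was 2.07 (95% interval 2.04 to 2.10) in resting and 1.61 (1.58 to 1.63) in LPS-stimulated B-cells. In the model across libraries the sum had a log2 fold change of 1.85 (SE 0.37, adjusted p = 0.0699 by edgeR's quasi-likelihood test) for Eμ-deficient against wt, 0.74 (SE 0.29, adjusted p = 0.0715) for LPS against resting and 0.66 (SE 0.36, adjusted p = 0.920) for 3′RR-deficient cells, none of which passed the threshold. The first passed it with the DESeq2 Wald test (adjusted p = 3.5e-06) and without the filter on low counts (adjusted p = 0.000296), and the second with the same settings (adjusted p = 0.0161 and 0.0486). In bulk RNA, more cells of a type and more RNA per cell cannot be told apart.

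The other light chain genes were read beside this sum from a list of 21 partner genes, of which 17 were tested. Igkc, the constant gene of every kappa chain, had 809, 2399 and 983 CPM in resting wt, Eμ-deficient and 3′RR-deficient B-cells, and 905, 2982 and 2594 CPM after LPS. The Igkc level and the Igkv sum were both highest in stimulated Eμ-deficient B-cells, but their order differed below that. Stimulated 3′RR-deficient B-cells had more Igkc than resting Eμ-deficient B-cells and a lower Igkv sum (2248 against 3139 CPM). The number of Igkv counts per Igkc count ran from 0.867 in stimulated 3′RR-deficient to 1.45 in stimulated wt B-cells. Igkc did not pass the test in any comparison, with adjusted p = 0.130 for Eμ-deficient against wt. In the Eμ-deficient libraries 3 of the 17 partner genes rose and none fell, where 0.911% of all genes tested rose. These were the lambda variable genes Iglv1 (log2 fold change 2.92, adjusted p = 0.00977) and Iglv2 (3.14, adjusted p = 0.00936) and Jchain (3.55, adjusted p = 0.00748), which links antibody units into polymers and is made by plasma cells. With LPS, Iglv1 (0.88, adjusted p = 0.0391) and Iglc1 (1.25, adjusted p = 0.0136) rose, and Dntt (-3.46, adjusted p = 0.0135) and Vpreb3 (-1.67, adjusted p = 0.00346), which act in B-cell development, fell. Dntt had 6, 13 and 17 counts in resting and 1, 1 and 0 in stimulated cells and passed the filter only through the resting libraries. These 2 rises and 2 falls among 17 genes stand beside 19.7% and 21.1% of all genes tested. For 3′RR-deficient cells edgeR called none of the 17, with 5 at an unadjusted p under 0.05, and DESeq2 called 1. Iglv counts were 7.97% of all light chain variable counts in resting wt B-cells (95% interval 7.53 to 8.41), 14.1% (13.8 to 14.4) in Eμ-deficient and 10.96% (10.6 to 11.4) in 3′RR-deficient B-cells. After LPS they were 8.18%, 11.2% and 12.3%. Kappa genes held most of the light chain variable counts in each library, and both mutants lay above wt in both states in this Iglv percentage. The lambda constant genes did not all follow it. Iglc1 had 41.8, 254.5 and 96.9 CPM in resting wt, Eμ-deficient and 3′RR-deficient B-cells and 128, 332.8 and 321.4 CPM after LPS. Iglc2 had 117, 263 and 138 CPM, then 205, 209 and 139 CPM. Iglc3 had 77.8, 156 and 130 CPM, then 111, 140.5 and 89.6 CPM.

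**Figure D1:**
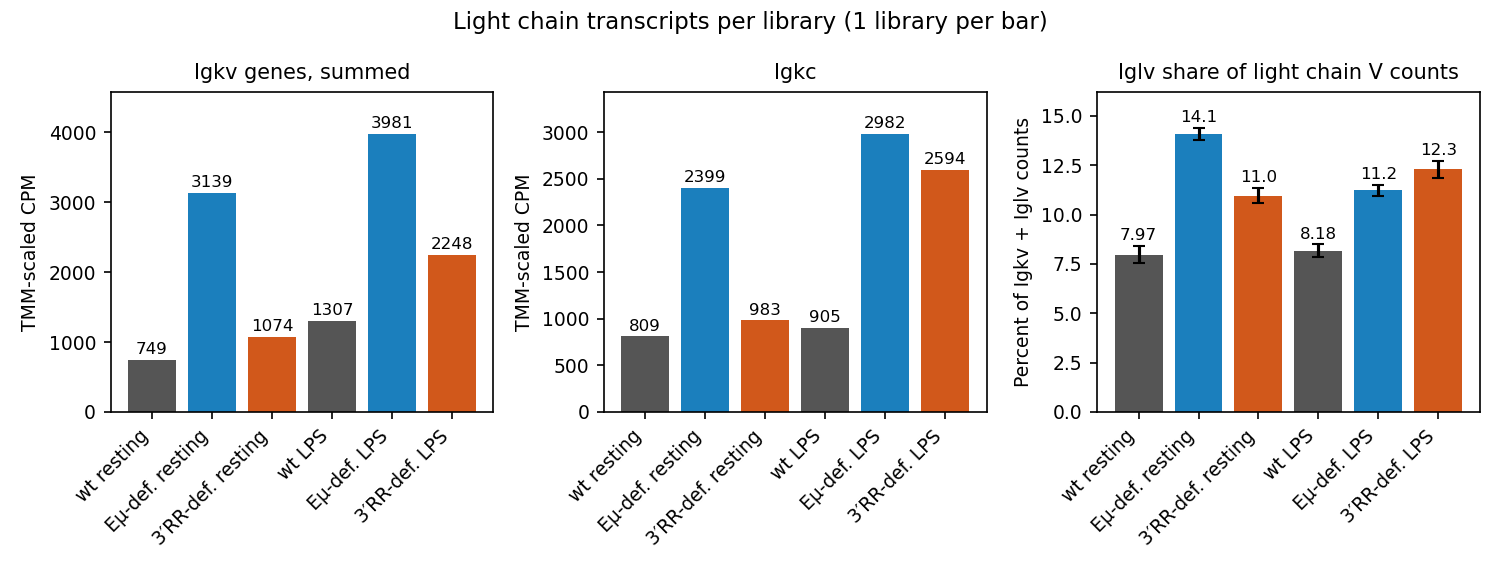
Summed Igkv level (left, TMM-scaled CPM), Igkc level (middle, TMM-scaled CPM) and percentage of light chain variable counts that were Iglv (right, with exact 95% counting intervals as error bars), with 1 bar for each of the 6 libraries, grey for wt, blue for Eμ-deficient and orange for 3′RR-deficient. The Igkv sums of the Eμ-deficient libraries, 3139 and 3981 CPM, are the highest bars of the left panel, and the 2 wt libraries have the lowest Iglv percentages, 7.97% and 8.18%.

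Marker genes of cell types also differed between the libraries, and not all in the direction of the Igkv sum. The 9 plasma cell genes of the list that were in the table summed to 633, 2385 and 697 CPM in resting wt, Eμ-deficient and 3′RR-deficient B-cells and to 934, 2212 and 1319 CPM after LPS, and 5 of the 9 rose with LPS (19.7% of all genes) and 1 (Jchain) in Eμ-deficient libraries (0.911% of all genes). Without Jchain the sums were 520, 651 and 527 CPM in resting and 838, 1409 and 1119 CPM in stimulated cells. Irf4 alone held 372, 366 and 364 CPM of these resting sums. Each other plasma cell gene was higher in resting Eμ-deficient than in resting wt B-cells, among them Xbp1 (91.3 and 43.3 CPM), Mzb1 (91.9 and 51.5 CPM) and Prdm1 (20.3 and 9.63 CPM). The 6 erythroid genes summed to 3354, 20140 and 3863 CPM in the resting libraries and to 52.9, 670 and 133 CPM after LPS, and all 6 rose in Eμ-deficient libraries. The 6 B-cell genes ran from 1688 to 3036 CPM, with the lowest sum in LPS-stimulated Eμ-deficient B-cells. The 5 follicular B-cell genes summed to 972, 593 and 1278 CPM in resting cells and the 6 marginal zone B-cell genes to 781, 1174 and 650 CPM. After LPS these sums were 303, 286 and 337 CPM and 218, 232 and 188 CPM, with 4 of 5 and 5 of 6 genes called lower (21.1% of all genes). The 6 myeloid genes summed to 136, 319 and 133 CPM in resting and 14.2, 27.2 and 20.3 CPM in stimulated cells and the 6 T-cell genes to at most 32.5 CPM, and all 12 fell with LPS, as did the 6 erythroid genes. The recombinase gene Rag2 and the pre-B-cell gene Igll1 were at 0 in all libraries and the whole early B lineage list stayed at or below 1.604 CPM. The part of these cells in the Igkv levels was not tested.

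A few genes carried much of the kappa output. Of the 158 names, 54 had a mean share of at least 0.5% over the 6 libraries and together held 92.5% of the Igkv counts, 34 had at least 1%, and the first 10 held 42.5%. Igkv1-117 (chr6:68121046-68121827, plus strand) had the highest mean share, 7.49%. Its share was 5.89% in resting wt, 6.39% in Eμ-deficient and 5.36% in 3′RR-deficient B-cells and 10.3%, 9.06% and 7.90% after LPS. It was higher after LPS in each genotype, and the resting and stimulated values did not overlap. Igkv1-110 (chr6:68270485-68271267, plus strand), its neighbour in sequence with 97.5% identity, had shares of 5.27%, 6.59% and 3.50% in resting and of 9.03%, 9.58% and 8.22% in LPS-stimulated cells. The groups again did not overlap. These 2 genes share 16.1% and 16.2% of their 100-base windows with other Igkv genes, and multi-mapping reads were counted. How many read pairs, sequenced for 150 nt from each end, could belong to more than 1 gene was not tested.

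Igkv1-135 (chr6:67609713-67610508), the third by mean share, had 5.22%, 7.10% and 4.94% in resting wt, Eμ-deficient and 3′RR-deficient B-cells and 9.94%, 6.99% and 5.04% after LPS. The log2 share ratio after LPS was 0.93 (95% interval 0.81 to 1.05) in wt, and the intervals of both mutants held 0. Igkv10-96 (chr6:68631963-68632442, minus strand) had 5.10%, 8.70% and 4.29% in resting and 4.07%, 5.19% and 4.36% in stimulated cells and was the most used gene of the resting Eμ-deficient library. Igkv5-43 had 2.31%, 3.09% and 2.25% in resting and 3.65%, 3.55% and 5.18% in stimulated cells. The first 10 also held Igkv6-15, Igkv12-44 and Igkv14-111, with shares between 1.67% and 3.58% in every library. The remaining members of the first 10 were Igkv14-126 and Igkv15-103, which are described with the mutants.

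**Figure D2:**
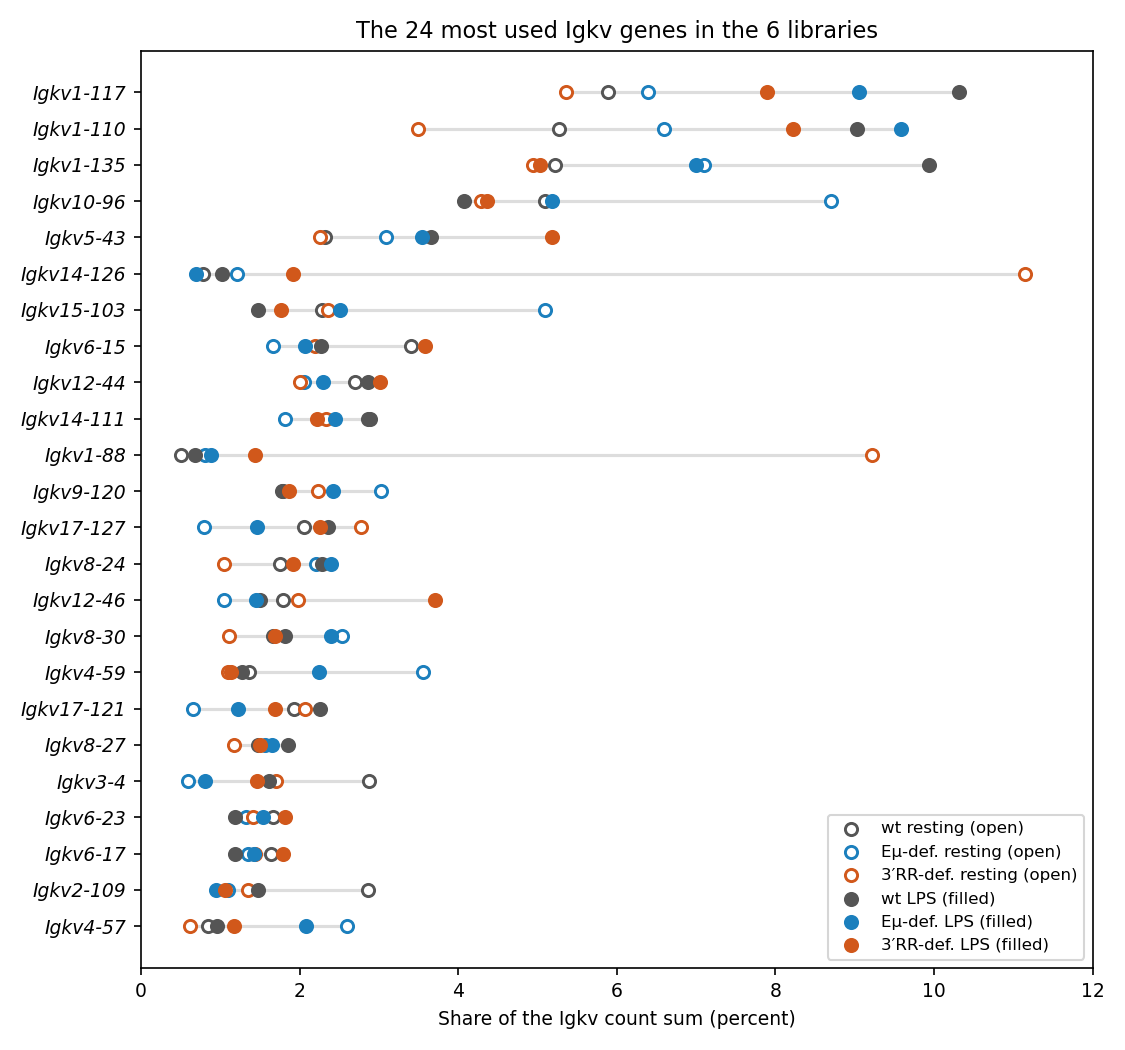
Share of the Igkv counts (percent) of the 24 Igkv genes with the highest mean share, with 1 point per library, open for resting and filled for LPS-stimulated B-cells, grey for wt, blue for Eμ-deficient and orange for 3′RR-deficient, and a line from the lowest to the highest value. Igkv14-126 and Igkv1-88 each have a single point far to the right, the resting 3′RR-deficient library at 11.1% and 9.22%, and the 3 LPS points of Igkv1-117 and Igkv1-110 lie to the right of the 3 resting points.

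By subfamily, Igkv1 was the largest with 13 members and shares of 17.8%, 21.8% and 23.9% in resting wt, Eμ-deficient and 3′RR-deficient B-cells and 30.9%, 27.2% and 23.3% after LPS. Igkv4, with 31 members, had 11.1%, 17.7% and 9.20% in resting and 9.27%, 13.9% and 9.77% in stimulated cells, so that both Eμ-deficient libraries lay above the other 4. Igkv6 had 12.9%, 7.63% and 7.94%, then 7.74%, 7.96% and 10.9%. The Igkv3 share was 11.6% in resting wt B-cells and between 3.88% and 6.61% in the other 5 libraries. Igkv14 held 14.3% in resting 3′RR-deficient B-cells and between 3.53% and 5.87% elsewhere. Igkv17 was low in both Eμ-deficient libraries (1.45% and 2.69%) and between 3.95% and 4.84% in the other 4. The Igkv15 share, nearly all of it Igkv15-103, was 2.28%, 5.10% and 2.37% in resting and 1.48%, 2.51% and 1.77% in stimulated cells. The remaining subfamilies with a mean share of at least 2% were Igkv8 (5.80% to 9.55%), Igkv12 (5.08% to 10.5%), Igkv10 (5.47% to 10.1%), Igkv5 (5.04% to 7.53%), Igkv9 (2.72% to 3.65%) and Igkv2 (1.45% to 3.67%).

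LPS stimulation was accompanied by higher levels of many Igkv genes. Of the 100 Igkv genes tested, 36 rose and 2 fell with LPS, where 19.7% of all genes tested rose and 21.1% fell. The median log2 fold change was 0.76 over the Igkv genes and -0.067 over all genes tested, and 91 Igkv genes had a value above 0. Among the 81 Igkv genes with at least 10 counts in every library, 26 rose and none fell. The rises ran from 0.72 to 2.83 on the log2 scale and included 7 of the 10 most used genes, and 34 of them were annotated variable genes. The 38 calls in both directions became 12 without either 3′RR-deficient library, 22 without either Eμ-deficient library, 24 with scaling by the total count and 8 without a genotype term.

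The largest of these rises belonged to Igkv3-11, an annotated pseudogene, with 0, 3 and 4 counts in resting wt, Eμ-deficient and 3′RR-deficient B-cells and 10, 15 and 9 counts after LPS (log2 fold change 2.83, SE 0.74, adjusted p = 0.0145 by edgeR). It is 98.8% identical to Igkv3-6 over 342 bases and shares 62.9% of its 100-base windows with other Igkv genes, so that these few reads are uncertain. It reached the count filter only through the LPS libraries, where it is high, and its call is given as a description. Of the other 35 rises, none was admitted in this way. Among the most used genes the largest rise was that of Igkv1-110, from 39.4, 207 and 37.6 CPM to 118, 381 and 185 CPM (log2 fold change 1.58, SE 0.31, adjusted p = 0.00408). Every genotype moved the same way, which the naming rule for called genes requires. Igkv14-100 rose from 6.33, 14 and 7.83 CPM to 13.5, 33.3 and 37.2 CPM (1.53, SE 0.29, adjusted p = 0.00336). Igkv4-92 (1.54, adjusted p = 0.0141) and Igkv12-41 (1.49, adjusted p = 0.00743) rose by a similar amount. The 2 falls were the pseudogenes Igkv2-107, with 31, 70 and 36 counts in resting and 6, 6 and 1 counts in stimulated cells (-3.06, SE 0.50, adjusted p = 0.00165), and Igkv1-108, with 17, 30 and 11 counts and then 5, 3 and 0 (-2.66, SE 0.68, adjusted p = 0.0135). Both passed the count filter only through the resting libraries, where they are high, so that these falls are a description too. Both lie on the plus strand, 2396 and 2410 kb from Igkj1.

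In shares, which leave the rise of the whole sum aside, fewer genes moved together. Of the 54 genes with a mean share of at least 0.5%, 3 had a higher share after LPS in all 3 genotypes beyond counting error, Igkv1-110, Igkv1-117 and Igkv5-43, and 3 a lower one, Igkv4-86, Igkv15-103 and Igkv2-109. The log2 share ratio of Igkv1-110 after LPS was 0.78 in wt, 0.54 in Eμ-deficient and 1.23 in 3′RR-deficient B-cells. That of Igkv1-117 was 0.81, 0.50 and 0.56. Igkv4-86 went the other way, with -2.49, -0.81 and -1.12. By subfamily sums, 7 of the 18 tested rose with LPS, Igkv1 (1.10, SE 0.29, adjusted p = 0.0151), Igkv5, Igkv8, Igkv11, Igkv12, Igkv13 and Igkv17, and none fell. Without the resting 3′RR-deficient library 2 rose, and without the stimulated one 3.

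The Eμ-deficient libraries had higher levels of most Igkv genes. Of the 100 tested, 35 rose and none fell against wt, where 0.911% of all genes tested rose and 0.253% fell. The median log2 fold change was 1.79 over the Igkv genes and -0.013 over all genes, and 99 Igkv genes had a value above 0. Among the 81 genes with at least 10 counts in every library, 31 rose. All 35 rises were annotated variable genes, and they ran from 1.39 to 3.46. The calls depended on the libraries and the fit. There were 15 without the resting Eμ-deficient library, 52 without the resting and 60 (59 rises and 1 fall) without the LPS-stimulated wt library, 53 and 54 without the resting or the stimulated 3′RR-deficient library, 23 with scaling by the total count, 53 with the DESeq2 Wald test and 0 without a term for state.

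Members of the Igkv4 subfamily made up 14 of the 35 rises, out of 28 Igkv4 genes tested, beside 35 of 100 Igkv genes in all. Such a rate was not particular to Igkv4, as Igkv8 had 5 of 10 and Igkv10 had 2 of 3. Igkv1 had 2 of 9 and Igkv3 had 1 of 8. The Igkv4 genes lie together between 1021 and 1967 kb from Igkj1. Igkv4-57 (chr6:69575975-69576500, minus strand) had 6.33, 81.6 and 6.66 CPM in resting wt, Eμ-deficient and 3′RR-deficient B-cells and 12.48, 83.1 and 26.5 CPM after LPS. Both Eμ-deficient values lay far above the other 4 (log2 fold change 3.28, SE 0.45, adjusted p = 0.0129 by edgeR). Igkv4-50 (3.18, SE 0.50, adjusted p = 0.0213) and Igkv4-70 (3.04, SE 0.44, adjusted p = 0.0161) had the same pattern. The largest rise was that of Igkv7-33, the single member of its subfamily, with 11, 84 and 35 counts in resting and 6, 38 and 13 counts in stimulated cells (3.46, SE 0.52, adjusted p = 0.0179). Igkv5-45 had 1.65, 28.8 and 4.86 CPM in resting and 5.35, 29.5 and 8.76 CPM in stimulated cells (3.24, SE 0.43, adjusted p = 0.0112). It is 98.4% identical to the more abundant Igkv5-43 and shares 32.9% of its 100-base windows with other Igkv genes. By subfamily sums, 8 of 18 rose, Igkv4 (2.50, SE 0.37, adjusted p = 0.0209), Igkv5, Igkv7, Igkv8, Igkv9, Igkv10, Igkv15 (2.84, SE 0.37, adjusted p = 0.0106) and Igkv16. There were 2 without the resting Eμ-deficient library and 13 without any one of the wt and 3′RR-deficient libraries.

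The composition of the kappa pool also differed from wt. Of the 54 genes, 13 had a higher and 13 a lower share in the Eμ-deficient than in the wt library of both states beyond counting error. The 5 with the largest smaller ratio were Igkv4-57, Igkv5-45, Igkv4-59, Igkv15-103 and Igkv4-53. Igkv4-57 had 0.845% in wt and 2.60% in Eμ-deficient resting cells and 0.954% and 2.09% after LPS, against 0.620% and 1.18% in the 3′RR-deficient libraries. Igkv4-59 had 1.37% and 3.55%, then 1.27% and 2.24%. Igkv15-103 (chr6:68437440-68437925) had 2.28% and 5.10%, then 1.48% and 2.51%, and its level rose (2.84, SE 0.37, adjusted p = 0.00977). On the low side were Igkv3-4, Igkv17-121, Igkv13-84, Igkv17-127 and Igkv2-109. Igkv3-4 had a share of 2.88% in wt and 0.595% in Eμ-deficient resting cells and of 1.61% and 0.805% after LPS. Its level was 21.6 and 18.7 CPM in the resting and 21.1 and 32.0 CPM in the stimulated libraries, which did not pass the test (0.18, SE 0.31, adjusted p = 0.990). Igkv17-121 and Igkv17-127, which are 97.5% identical to each other, had shares of 1.93% and 2.06% in wt and 0.651% and 0.795% in Eμ-deficient resting cells.

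**Figure D3:**
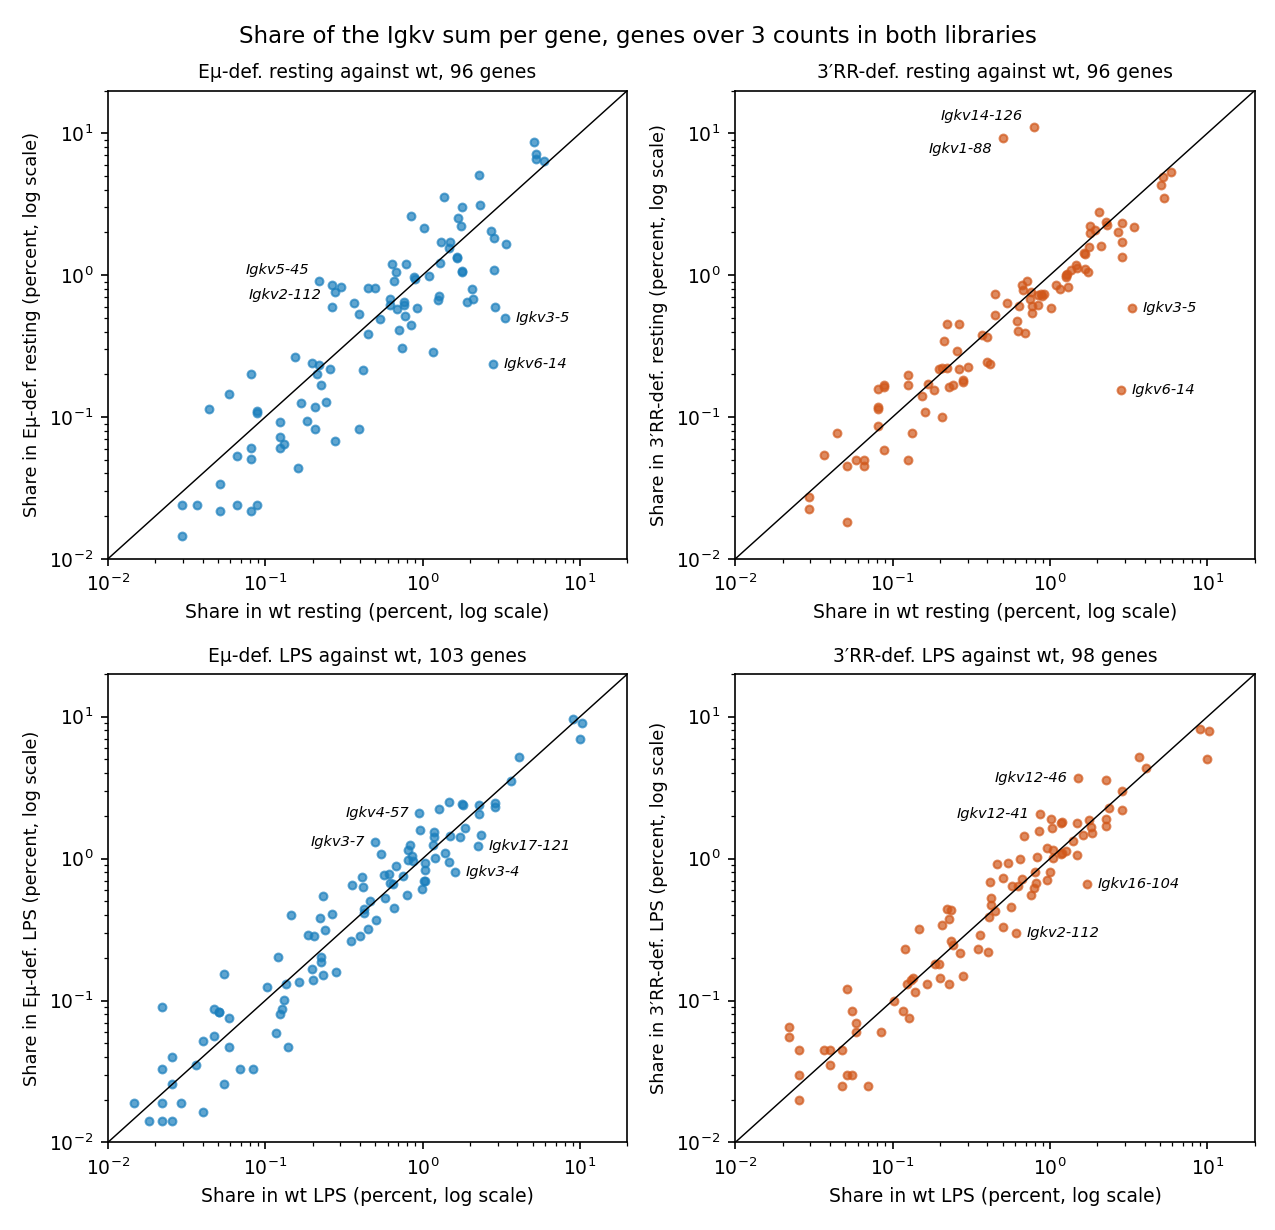
Share of the Igkv counts of each Igkv gene in an Eμ-deficient (left, blue) or 3′RR-deficient library (right, orange) against the wt library of the same state (percent, log scales), for resting (top) and LPS-stimulated B-cells (bottom), with 1 point per gene with over 3 counts in both libraries, from 96 to 103 genes a panel. The diagonal marks equal shares, and the 4 names in each panel are the highest and lowest ratios among genes with a mean share of at least 0.5%. Igkv14-126 and Igkv1-88 lie far above the diagonal in the resting 3′RR-deficient panel, and Igkv6-14 and Igkv3-5 lie below it in both resting panels.

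No Igkv gene was called for 3′RR-deficient against wt by edgeR's quasi-likelihood test, where 0.171% of all genes tested rose and 0.507% fell. Without adjustment 27 of the 100 had a p below 0.05, against 5.69% of all genes, and the DESeq2 Wald test called 3 rises and no fall, against 0.384% and 0.836% of all genes. The median log2 fold change was 0.51 over the Igkv genes and 0.038 over all genes, and 93 Igkv genes had a value above 0. Leaving out a library gave from 2 to 5 calls, except that 17 genes rose without the resting wt library.

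Within the resting 3′RR-deficient library, 2 genes held 20.4% of the kappa counts. Igkv14-126 had 107, 500 and 2463 counts in resting wt, Eμ-deficient and 3′RR-deficient B-cells and 278, 294 and 383 counts after LPS. Its share was 11.1% in the resting 3′RR-deficient library (95% interval 10.7 to 11.6), the largest of any Igkv gene in any library. In the other 5 libraries the share lay between 0.692% and 1.91%, with 1.91% in the stimulated 3′RR-deficient library. Igkv1-88 had 68, 337 and 2037 counts in resting and 186, 375 and 288 counts in stimulated cells. Its share was 9.22% (8.84 to 9.61) in resting 3′RR-deficient B-cells and between 0.4996% and 1.44% elsewhere, again with the second highest value in the stimulated 3′RR-deficient library.

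Both genes thus had a higher share in the 3′RR-deficient than in the wt library of each state, and with all names in the sum no other of the 54 did so beyond counting error. The log2 share ratio to wt of Igkv14-126 was 3.83 (95% interval 3.55 to 4.12) in resting and 0.91 (0.69 to 1.14) in stimulated cells. That of Igkv1-88 was 4.21 (3.86 to 4.58) and 1.08 (0.81 to 1.36). In the model their log2 fold changes were 2.96 (SE 0.56, adjusted p = 0.0627 by edgeR) and 3.38 (SE 0.62, adjusted p = 0.0541). Both missed the threshold there and passed it with the DESeq2 Wald test (adjusted p = 7.18e-07 and 3.21e-08). Without a term for state edgeR called neither of them. Fits without a wt or a 3′RR-deficient library are no check of these 2 genes. The lone library left of that genotype is then matched exactly and adds nothing to the error. Fits without an Eμ-deficient library keep all wt and 3′RR-deficient libraries, and their values for these genes are not given here. The third gene called by the DESeq2 Wald test, Igkv12-46 (adjusted p = 0.0414), is named after its values were seen. It had a share of 1.79%, 1.05% and 1.98% in resting and of 1.499%, 1.45% and 3.70% in stimulated cells.

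The genes are not near copies of each other or of another member. Their transcripts are 65.0% identical, the nearest relative of Igkv14-126 is Igkv14-111 (91.6%) and that of Igkv1-88 is Igkv1-110 (85.5%), and neither shares any 100-base window with another Igkv gene. Igkv14-126 (chr6:67896172-67896642, plus strand) and Igkv1-88 (chr6:68862265-68863031, minus strand) lie 2826 and 1860 kb from Igkj1, on opposite strands. No other Igkv gene differed in share by as many percentage points between 2 libraries. The last 300 coding bases of each of the pair are given (GENCODE M21, GRCm38, coding strand, capitals as above).
Igkv14-126: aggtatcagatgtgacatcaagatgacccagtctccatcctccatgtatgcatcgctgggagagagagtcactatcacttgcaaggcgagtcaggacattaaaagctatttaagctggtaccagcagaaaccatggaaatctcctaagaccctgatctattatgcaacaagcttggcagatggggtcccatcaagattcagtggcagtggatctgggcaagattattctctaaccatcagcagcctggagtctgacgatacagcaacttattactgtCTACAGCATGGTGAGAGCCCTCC
Igkv1-88: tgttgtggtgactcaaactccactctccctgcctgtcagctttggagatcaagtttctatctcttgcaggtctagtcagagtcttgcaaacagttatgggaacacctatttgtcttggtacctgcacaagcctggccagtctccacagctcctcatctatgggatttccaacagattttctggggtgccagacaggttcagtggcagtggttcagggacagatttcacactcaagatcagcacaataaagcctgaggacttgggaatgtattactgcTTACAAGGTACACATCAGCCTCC

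The higher Igkv sum of the resting 3′RR-deficient library rested in large part on this pair. The log2 ratio of the sum to wt was 0.52 (95% interval 0.49 to 0.55) with all names and 0.21 (0.18 to 0.24) without them. Igkv14-126 light chains are known to pair with the heavy chain variable gene Ighv11-2 in B-1 cells that bind phosphatidylcholine. Most B-1 cells carry CD43, and cells carrying CD43 were depleted here. How many B-1 cells remained was not tested. Ighv11-2, looked up because of this pairing after the values were seen, had 46, 195 and 121 counts in resting wt, Eμ-deficient and 3′RR-deficient B-cells and 108, 59 and 16 counts after LPS. It made up 2.81% of 4305 heavy chain variable (Ighv) counts in the resting 3′RR-deficient library and at most 0.661% elsewhere. Resting wt B-cells had 10428 Ighv counts, so that the share depends on the low Ighv total of the 3′RR-deficient library. The resting Eμ-deficient library had more Ighv11-2 counts (195 against 121) with fewer gene counts in all (13406257 against 20780706). Its Ighv total was also higher (29495 against 4305), so that neither counts nor shares alone compare Ighv11-2 between these libraries. The 5 B1 cell genes of the list summed to 47.6, 74.0 and 62.9 CPM in resting and 136, 192 and 181 CPM in stimulated cells, and their part in these shares was not tested. In resting 3′RR-deficient against wt B-cells they differed both ways. Bhlhe41 (41.9 and 17.4 CPM), Cd5 (3.743 and 2.365 CPM) and Zbtb32 (1.944 and 1.595 CPM) were higher. Plscr1 (3.94 and 9.46 CPM) and Itgam (11.4 and 16.8 CPM) were lower. Zbtb32 alone made up 80.4, 116 and 122 CPM of the stimulated sums.

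On the low side, 9 of the 54 genes had a lower share in the 3′RR-deficient than in the wt library of both states, led by Igkv6-14, Igkv16-104, Igkv2-109, Igkv4-53 and Igkv8-27. The pair's 20.4% lowers every other share of the resting 3′RR-deficient library, and with the pair left out of the sums 6 of these 9 were still lower in both states and 5 other genes were higher in both. Igkv16-104, the single member of its subfamily, had 1.30% in wt and 0.819% in 3′RR-deficient resting cells and 1.72% and 0.660% after LPS. Igkv8-27 had 1.47% and 1.18%, then 1.86% and 1.5%. Without the pair its resting shares were 1.49% in wt and 1.48% in 3′RR-deficient cells, and Igkv8-27 was no longer among the lower genes. Igkv2-109 and Igkv4-53 are also among the genes named for Eμ-deficient cells, Igkv2-109 on the same and Igkv4-53 on the opposite side, and both comparisons use the same wt libraries. For Igkv6-14 the size of the resting ratio (log2 -4.19) rested on the resting wt library, and the ratio after LPS was -0.87 (95% interval -1.41 to -0.35). Its share was 2.81% there, 0.236% in Eμ-deficient and 0.154% in 3′RR-deficient resting cells, and 0.402%, 0.287% and 0.220% after LPS. Igkv3-5, chosen after its values were seen, was similar, with 3.34% in resting wt and between 0.497% and 1.04% in the other 5 libraries. Igkv2-109 followed, with 2.86% in resting wt and at most 1.48% elsewhere. Igkv3-5 lies 58.7 kb and Igkv6-14 287 kb from Igkj1.

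Usage was most even in resting wt B-cells. The effective number of genes, which is the number of equally used genes that would give the same Shannon entropy, was 55.1 in resting wt, 46.9 in Eμ-deficient and 46.4 in 3′RR-deficient B-cells. After LPS it was 44.2, 47.2 and 49.2. Without Igkv14-126 and Igkv1-88, the resting 3′RR-deficient library had 55.1 and the resting wt library 53.7, so that their order turned without the pair. The 10 most used genes of each library held 39.6% in resting wt and between 45.5% and 49.7% in the other 5. There were from 110 to 120 Igkv genes detected per library, and at a common depth of 13610 Igkv counts between 107 and 116.

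The usage profiles were closer to one another in LPS-stimulated than in resting B-cells. The distance between 2 libraries, which is the sum of the absolute share differences divided by 2, averaged 26.7 percentage points over the 3 pairs of resting libraries and 14.9 over the 3 pairs of stimulated libraries. Between the 2 libraries of a genotype it averaged 19.2. Counting error alone would give between 2.25 and 3.72 points. The lowest distance was 13.1, between LPS-stimulated wt and Eμ-deficient B-cells, and the highest 31.5, between resting Eμ-deficient and 3′RR-deficient B-cells. The 2 Eμ-deficient libraries were the closest of the 3 same-genotype pairs (14.4). Without Igkv14-126 and Igkv1-88 the averages were 20.1 for resting and 14.5 for stimulated pairs. The 15 distances come from 6 libraries and were not tested.

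**Figure D4:**
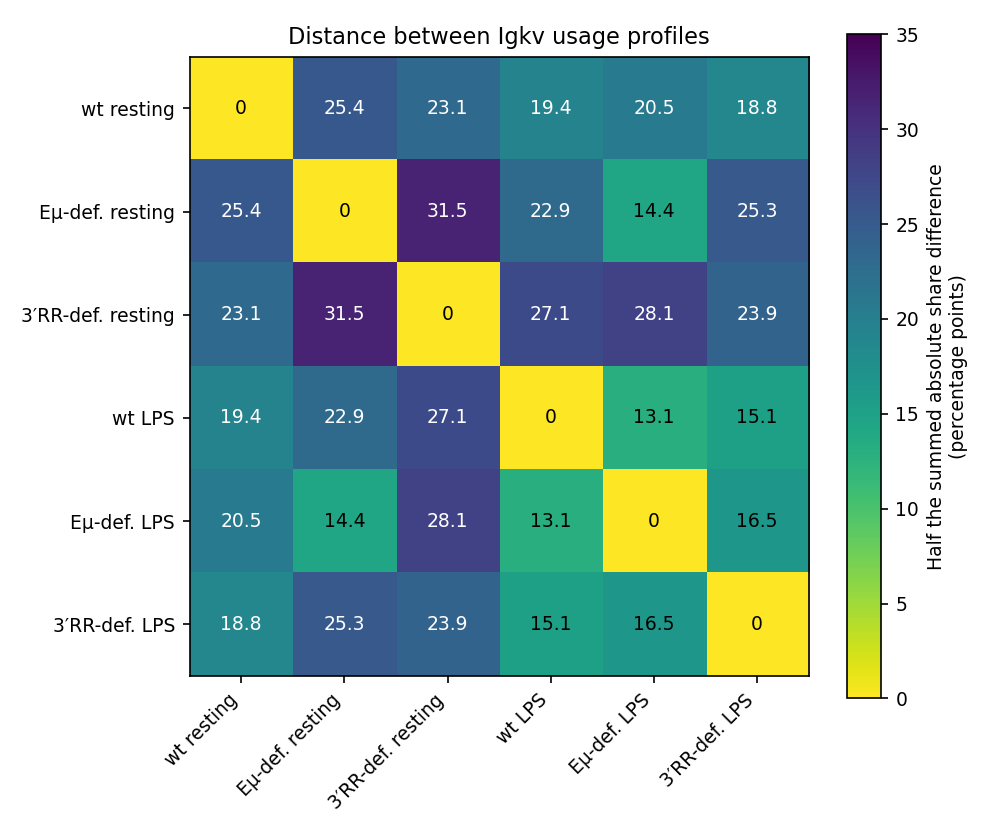
Distance between the Igkv usage profiles of each pair of the 6 libraries, as the summed absolute share difference divided by 2, in percentage points, with the value printed in each cell and a darker colour for a larger distance. The 3 pairs of LPS-stimulated libraries (13.1, 15.1 and 16.5) are lower than the 3 pairs of resting libraries (23.1, 25.4 and 31.5).

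Position along the locus was compared in 4 groups of 38 or 39 placed names by distance from Igkj1. The nearest group, 18.4 to 779 kb away and with 33 variable genes, held 32.5% of the Igkv counts in resting wt B-cells and between 20.5% and 26.0% in the other 5 libraries. Igkv3-5 and Igkv6-14 lie in this group. The farthest group, from 2285 to 3166 kb, held 35.2%, 38.3% and 41.7% in resting wt, Eμ-deficient and 3′RR-deficient B-cells and 47.3%, 41.2% and 36.7% after LPS. It includes Igkv1-117, Igkv1-110, Igkv1-135 and Igkv14-126, and the last of these alone held 11.1% in the resting 3′RR-deficient library. The second group, from 822 to 1479 kb, which includes 17 of the Igkv4 genes, held 16.9%, 23.2% and 15.2% in resting and 17.3%, 21.7% and 22.9% in stimulated cells. Names on the plus strand held between 44.9% and 56.6%. Pseudogenes held 1.01%, 0.492% and 0.887% in resting and 0.479%, 0.329% and 0.445% in stimulated cells, the larger value being the resting one in each genotype.

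**Figure D5:**
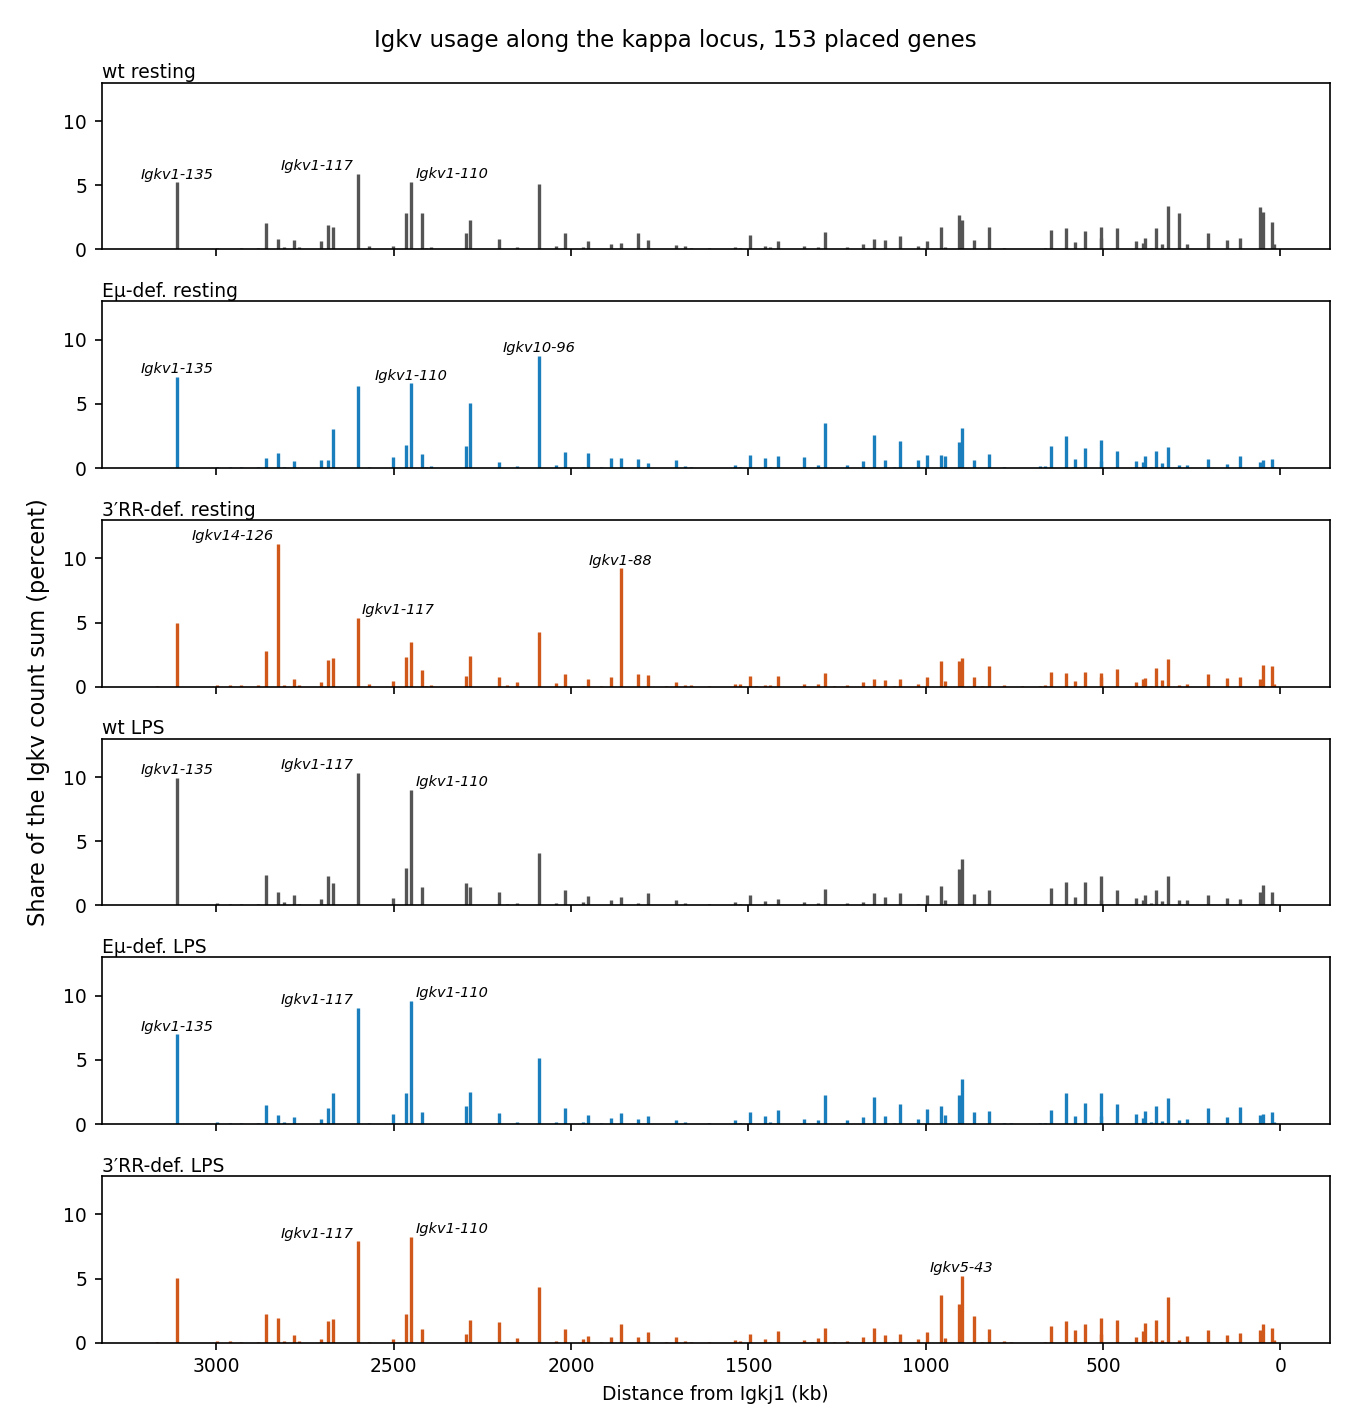
Share of the Igkv counts (percent) of the 153 placed Igkv names against their distance from Igkj1 (kb, the gene nearest to Igkj1 at the right), in 1 panel for each of the 6 libraries, with the 3 most used genes of each library named. High bars stand at the far end of the locus in every panel (Igkv1-135, Igkv1-117 and Igkv1-110), and the bars of Igkv14-126 and Igkv1-88 stand out in resting 3′RR-deficient B-cells.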

How the data were processed

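RNA of 6 libraries of CD43- splenic B-cells was analysed from a table of counts per gene name that the authors deposited. Per the labels and the study's methods, the authors aligned reads with STAR 2.4.0a to mm10 and counted them with featureCounts (Subread 1.4.6-p1, Ensembl 77 genes), by strand, with multi-mapping reads counted. By the tool's default a fragment over more than 1 gene is left out, so that a V fragment reaching Igkj or Igkc may be missing. The reference is not the 129 strain. Labels and methods disagree on culture of the resting cells, on the LPS dose (5 mg per ml in a protocol label, 5 μg per ml in the methods) and on the mice: the labels give pools of 2, the methods 4 mice and 2 pools per genotype.

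From these counts, the 92 spike-ins were set aside and the 14600 genes reaching 10 counts in 2 or more libraries were fitted with edgeR 4.0.16 in R 4.3.3 (TMM, quasi-likelihood test, genotype and state as additive terms, Benjamini-Hochberg threshold 0.05). The 2 libraries of a genotype may share mice. Shares, exact intervals and distances were computed in Python 3.11.15 with scipy 1.17.1, alignments with Biopython 1.88. DESeq2 1.42.0, other scalings and filters, a GC correction and leaving out libraries were alternatives. In simulated data, 200 of 14600 genes were changed by 2 on the log2 scale in 1 comparison at a time. The simulated libraries were independent and additive, and all other genes had the same mean in each. The model recovered 84.5% for LPS, 65% for Eμ-deficient and 75% for 3′RR-deficient cells. Of the calls, 5.59%, 2.99% and 11.8% were unchanged genes. The real libraries hold many more changes and may share mice, so that these rates may not hold for them. Depth was 9111974 to 21998587 counts, and 3 counts, the limit that a count of 0 allows, were 0.143 to 0.337 CPM.

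Genes were named by rule: the 10 with the highest mean share, up to 5 called genes per direction with the largest fold change in each comparison with CPM differences of 1 sign across all pairs, and up to 5 per direction with the largest smaller share ratio beyond counting error in every pair of libraries. Igkv members and gene lists were chosen with earlier results of these data known.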

Additional observations from a re-analysis of the deposited data

Results flagged for a closer look

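Each of the following genes had a share that went in opposite directions in 2 groups under the same contrast, beyond counting error in each. With 1 library per group none of these differences was tested. The values are log2 ratios of shares.

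Igkv14-126 was higher in Eμ-deficient than in wt B-cells at rest (0.62) and lower after LPS (-0.56). From resting to LPS-stimulated cells it went up in wt (0.37) and down in Eμ-deficient (-0.80) and 3′RR-deficient B-cells (-2.54). Igkv1-88 went up with LPS in wt (0.44) and down in 3′RR-deficient B-cells (-2.68).

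Igkv6-15 was lower in 3′RR-deficient than in wt B-cells at rest (-0.63) and higher after LPS (0.66). From resting to stimulated cells it went down in wt (-0.58) and up in Eμ-deficient (0.31) and 3′RR-deficient B-cells (0.70).

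Igkv1-117 was higher in Eμ-deficient than in wt B-cells at rest (0.12) and lower after LPS (-0.19), and Igkv1-135 likewise (0.44 and -0.51).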

How the results depend on the processing

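With 1 library per genotype and state, calls rest on few residual degrees of freedom, and where a library was left out its lone partner was assumed to vary like the rest. Over 42 gene and comparison pairs, 474 alternative values kept direction and side of the threshold, 56 fell below it, 62 passed it and 9 turned. The cause of each change was not tested.

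Igkv genes called with LPS (38) were 24 with total count scaling, 8 without a genotype term (no replicate block) and 12 to 51 with a library left out. The LPS change of the Igkv sum passed the threshold without the low-count filter (0.77) and with DESeq2 (0.75), and ran from 0.56 to 1.02 with a library left out, passing without resting wt (adjusted p = 0.0488). Calls for Eμ-deficient cells (35) were 23 with total count scaling, 63 without the filter, 53 with DESeq2, 0 without the state term (no replicate block), 54 with the 2 genotypes alone and 15 to 60 with a library left out. The Eμ change of the sum passed without the filter (1.79), with DESeq2 (1.84) and with 2 genotypes alone (1.84), and ran from 1.501 to 2.13, passing without any one wt or 3′RR-deficient library (adjusted p 0.00496 to 0.0336) and not without resting (1) or stimulated (0.226) Eμ-deficient B-cells. Calls for 3′RR-deficient cells (0) were 1 with total count scaling, 5 without the filter, 3 with DESeq2, 3 with 2 genotypes alone and 2 to 17 with a library left out. Subfamilies called, an alternative chosen after seeing the data, were 2 to 8 for LPS, 2 to 13 for Eμ-deficient and 0 to 3 for 3′RR-deficient cells.

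The LPS change of Igkv14-126 (-0.30) ran from -0.97 to 0.34 with a library left out. That of Igkv15-103 (0.04) was -0.051 with total count scaling, -0.061 with 10 counts in every library, -0.35 without the genotype term and -0.28 to 0.43 with a library left out. The lead of resting wt B-cells in effective number of genes (5.91) was 4.93 without the most used gene, 4.51 for annotated variable genes, 0.74 for subfamily sums, 5.26 per length and -1.42 without Igkv14-126 and Igkv1-88. Without that pair, an alternative added after seeing the data, 6 rather than 9 other genes had a lower and 5 rather than 0 a higher share in both 3′RR-deficient libraries, 4 rather than 3 a lower share after LPS, and the counts for Eμ-deficient cells did not move. Also without it, the excess of resting over stimulated distances (11.8) was 5.68, and the resting 3′RR-deficient ratio of the sum (0.52) was 0.21.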
